A study of Homo sapiens with 8 samples.

Results

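LSD1 occupancy along chromosome 16 was taken from CUT&RUN in a human breast cancer line, MDA-MB-231. There were 2 libraries of parental cells and 2 of RCOR2-KO1 cells, in which RCOR2 had been knocked out with CRISPR/Cas9. In CUT&RUN an antibody, here against LSD1, directs a nuclease to the chromatin around its target, and the DNA it cuts free is sequenced. Peaks had been called per library, with rabbit IgG libraries as input, and the authors deposited for each peak the single base of highest signal (the summit) with a −log10 of a p or q value. Summits of the 4 lists were joined into 1 region as long as each lay within 500 bp of the next, and every region of chromosome 16 was kept. This gave 2091 regions of the 68148 on chromosomes 1 to 22 and X. KO1 is a single knockout line, and the methods describe mixing several knockout clones without making plain whether that holds for this cell line. Chromosome 16 was chosen by earlier results of this genotype contrast, namely its share of regions of 1 genotype and its rank differences, so all values by genotype are a description of these 4 libraries. The lists hold no measure of RCOR2 itself, of read coverage or of DNA copy number.

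LSD1 (KDM1A) is a histone demethylase that removes methyl groups from lysine 4 of histone H3, and it works on nucleosomes as part of complexes with a CoREST protein and histone deacetylases. RCOR2 is 1 of the CoREST family members that couple LSD1 to chromatin. Chromosome 16 is gene-rich, with the tumour suppressor genes AXIN1 and TSC2, the acetyltransferase gene CREBBP and the MHC-II coactivator gene CIITA on its short (p) arm. The long (q) arm holds, in order from the centromere, the IRX3 and IRX5 homeobox genes, the metallothionein genes, the cadherin genes CDH3 and CDH1, and then WWOX, MAF, CDH13, IRF8, FOXF1 and FOXC2. Positions below are those of hg19, and which gene lies at any of them was not determined here.

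The parental lists held 47354 summits (replicate 1) and 54467 (replicate 2), and the KO1 lists held 49586 and 50119. Sequencing depth is unknown, so these totals are the only measure of library size, and the −log10 values were compared only as a percentile within their own list, where 100 is the strongest summit. The summits of chromosome 16 ran from 60515 to 90148553, and their widest gap, 32199551 to 46607179, was taken as the border between the arms. The p arm held 913 regions and the q arm 1178, which is 28.4 and 27.1 regions per Mb between the outermost summits of each arm. The next widest gaps were 60171903 to 64126393 on the q arm and 5148119 to 8223355 on the p arm.

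A smaller share of the KO1 lists than of the parental lists lay on chromosome 16, and the difference was on the q arm. Chromosome 16 held 1488 summits of parental replicate 1, 1718 of parental replicate 2, 1434 of KO1 replicate 1 and 1454 of KO1 replicate 2. As a share of each list these were 3.14% (95% Wilson interval 2.99 to 3.30), 3.15% (3.01 to 3.30), 2.89% (2.75 to 3.04) and 2.90% (2.76 to 3.05), where the intervals cover counting error only and overlap between the genotypes. The means were 3.15% ± 0.0084 in parental and 2.90% ± 0.0065 in KO1 cells (SD, n = 2 libraries each), a gap of −0.252 percentage points. Both pairs agreed far more closely than the counting intervals are wide, so these SDs are a poor measure of the spread between libraries. With 2 libraries against 2 the exact permutation test cannot go below p = 0.333, and it gave that value here. The ratio of the mean KO1 share to the mean parental share was 0.920, lower than on 20 of the other 22 chromosomes, with only 20 (0.908) and 19 (0.919) below it.

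The share of the lists on the p arm interleaved between the genotypes. It was 1.34% and 1.38% in the parental lists and 1.34% and 1.37% in the KO1 lists (exact permutation p = 0.667). The q arm took 1.80% and 1.78% of the parental lists but 1.55% and 1.53% of the KO1 lists, 1.79% ± 0.014 against 1.54% ± 0.014 (SD, n = 2 each), with no overlap (exact permutation p = 0.333, the smallest possible). Within each list, which needs no scaling between libraries, there were 1.34 and 1.29 q-arm summits for each p-arm summit in parental cells and 1.16 and 1.12 in KO1 cells.

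Regions with an LSD1 summit in both parental lists and no KO1 list were more common on chromosome 16 than in the genome, while the opposite class was less common. Of the 2091 regions, 136 (6.50%) were in both parental and no KO1 list (parental-only) beside 4.24% over all chromosomes, and 62 (2.97%) were in both KO1 and no parental list (KO1-only) beside 3.62%. Summits of all 4 lists were joined in 1069 regions (51.1%), and 468 regions (22.4%) rested on 1 list, 226 of them on parental replicate 2, the longest list. By parental-only share chromosome 16 ranked 3 of 23, after chromosome 20 (7.36%) and chromosome 18 (7.0%).

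**Figure D1:**
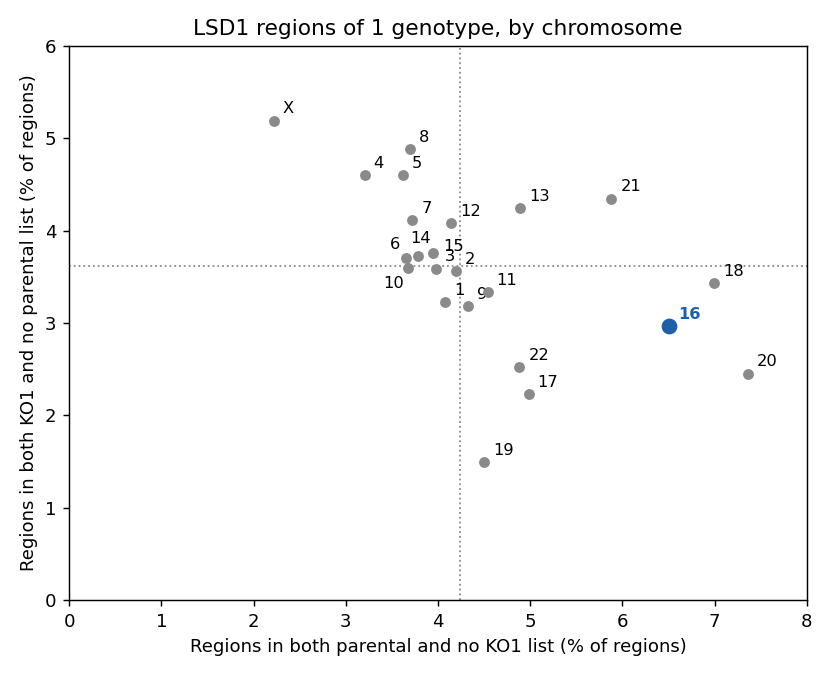
Share of parental-only regions (x axis, %) against the share of KO1-only regions (y axis, %), 1 point per chromosome, with dotted lines at the values over all chromosomes (4.24% and 3.62%). Chromosome 16, in blue, lies at 6.50% and 2.97%, beside chromosomes 18 and 20 and opposite to X.

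The surplus of parental-only regions lay on the q arm. On the p arm 31 of 913 regions (3.40%, 95% Wilson interval 2.40 to 4.78) were parental-only and 30 (3.29%) KO1-only, close to even. On the q arm 105 of 1178 (8.91%, 7.42 to 10.7) were parental-only and 32 (2.72%) KO1-only. These intervals treat regions as independent, which neighbours are not. The p arm was thus near the genome on both counts, and the q arm was above it on the first. With 1 library left out, the class asks for a summit in fewer lists and the shares rise everywhere: to 13.7% on the p arm and 21.7% on the q arm without parental replicate 1, 7.55% and 15.9% without parental replicate 2, 6.11% and 13.5% without KO1 replicate 1, and 7.04% and 12.5% without KO1 replicate 2. The shares over all chromosomes in the same order were 13.6%, 8.50%, 7.41% and 7.89%, so that the p arm was near or below the genome and the q arm above it each time.

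Along the arms, the parental-only regions were gathered in a few stretches. In bins of 5 Mb, the parental-only share was 20.7% (17 of 82 regions) at 75 to 80 Mb, 18.3% (13 of 71) at 50 to 55 Mb, 13.9% (26 of 187) at 80 to 85 Mb and 8.02% (19 of 237) at 85 to 90 Mb. The bins at 75, 50 and 80 Mb ranked 2, 5 and 8 among the 552 bins of the genome with at least 30 regions, whose median was 3.56% and highest value 25%. Of the 19 bins above 10%, 3 were on chromosome 16, which supplied 15 of the 552 bins. The 4 bins named, picked for their values, held 75 of the 105 parental-only regions of the q arm (71.4%) and 577 of its 1178 regions (49.0%), and in the rest of the q arm 30 of 601 regions (4.99%) were parental-only. The bin at 50 to 55 Mb had no KO1-only region, those at 75 to 80 and 85 to 90 Mb had 1 and 3, and that at 80 to 85 Mb had 8 (4.28%), above the share over all chromosomes. On the p arm no bin passed 5.45% (14 of 257, at 0 to 5 Mb), and the lowest values were 0.926% (1 of 108) at 15 to 20 Mb and 1.06% (1 of 94) at 30 to 35 Mb.

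**Figure D2:**
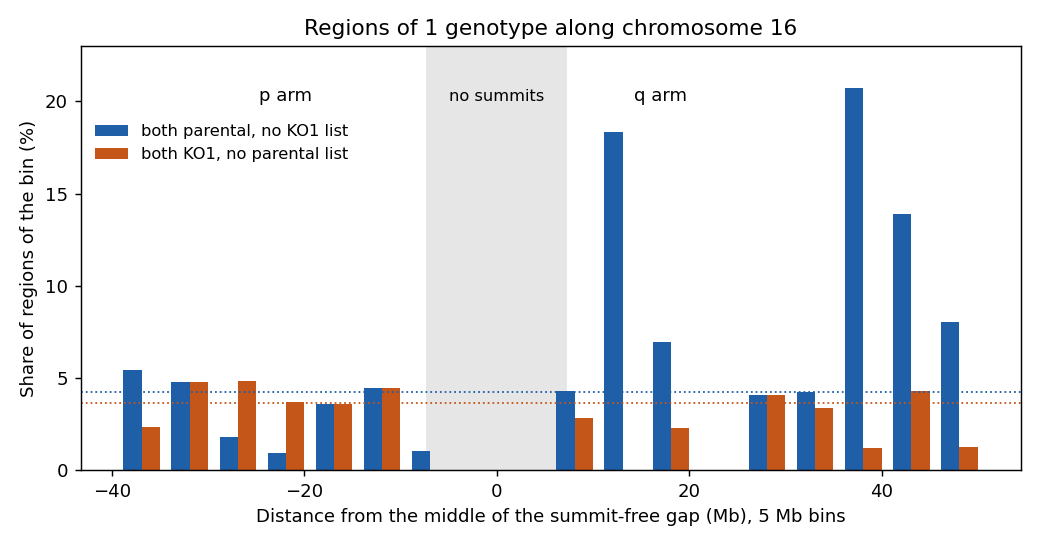
Share of parental-only (blue) and KO1-only (orange) regions in 5 Mb bins with at least 30 regions (y axis, %), against the distance from the middle of the summit-free gap (x axis, Mb; grey, the gap); dotted lines give the shares over all chromosomes. The blue bars stand above 10% in 3 bins, all on the q arm, at 18.3%, 20.7% and 13.9%.

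Part of this came from long stretches in which the KO1 lists had no summit at all. A run is an unbroken series of neighbouring regions without a KO1 summit, and 7 runs of at least 10 regions were found in the genome. Chromosome 16 had 3 of them, all on the distal q arm, and chromosome 20 had the longest, with 36 regions. The reverse, runs of at least 10 regions without a parental summit, occurred 2 times in the genome and not on chromosome 16, where the longest such run had 4 regions. The number of long runs also moved with the libraries: without parental replicate 2 there were 4 in the genome and 2 on chromosome 16, without KO1 replicate 1 there were 11 and 3, and with every list truncated to the shortest one 5 and 2. Runs depend on weak summits: in the upper 50% of each list no run of the genome reached 10 regions, and the longest of chromosome 16 had 6.

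The first run lay at chr16:78718161-80058070 and was the second longest of the genome. It held 24 regions, 14 of them in both parental lists, 8 in parental replicate 2 alone and 2 in parental replicate 1 alone. The KO1 summits on either side stood at 78244452 and 80061088, so that 1817 kb passed without a summit in either KO1 list. LSD1 signal in the run was modest in the parental cells. Over the 14 regions in both parental lists the median percentile was 31.8 in replicate 1 and 37.9 in replicate 2. Regions of 1 parental list alone are not in these medians. Of the 14, 1 region was at or above the 50th percentile in both. That region, chr16:79406503-79406510, was at percentiles 51.7 and 52.9. Higher single values were 69.9 and 48.2 at chr16:79662310-79662603 and 45.2 and 78.9 at chr16:79674041-79674051, where the parental replicates differed by over 20 points.

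The second run, chr16:82734145-83377831, held 14 regions, 12 of them in both parental lists, and was the fourth longest. It was the most evenly shared by the parental libraries and held the strongest sites. The region chr16:82979440-82979505 was at percentiles 75.3 and 83.4 in the parental lists (−log10 values 34.9 and 52.4), and the nearest KO1 summit was 245829 bp away. At chr16:83177566-83177593 the parental percentiles were 65.4 and 83.2, at chr16:83171118-83171234 they were 58.2 and 80.7, and at chr16:83029653-83029731 they were 62.3 and 58.6. These 4 sites were above the middle of both parental lists, with no KO1 summit within the run. The KO1-free stretch, 82733611 to 83841483, measured 1108 kb. Its left end was close to the run: a KO1 summit lay 534 bp before the first region, just beyond the joining distance.

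The third run, chr16:85925147-86496347, was the seventh longest and the least shared. It held 10 regions, of which 4 were in both parental lists and 6 in parental replicate 2 alone. The 4 shared regions lay together at 86389442 to 86421281, with parental percentiles of 19.7 and 11.3, 54.9 and 56.9, 66.3 and 60.5, and 44.4 and 49.3. The stretch without a KO1 summit measured 666 kb. Beyond its right end, at chr16:86619113-86619151, stood the strongest q-arm region of all 4 lists, with percentiles of 99.78 and 99.99 in parental and 99.6 and 99.5 in KO1 cells.

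**Figure D3:**
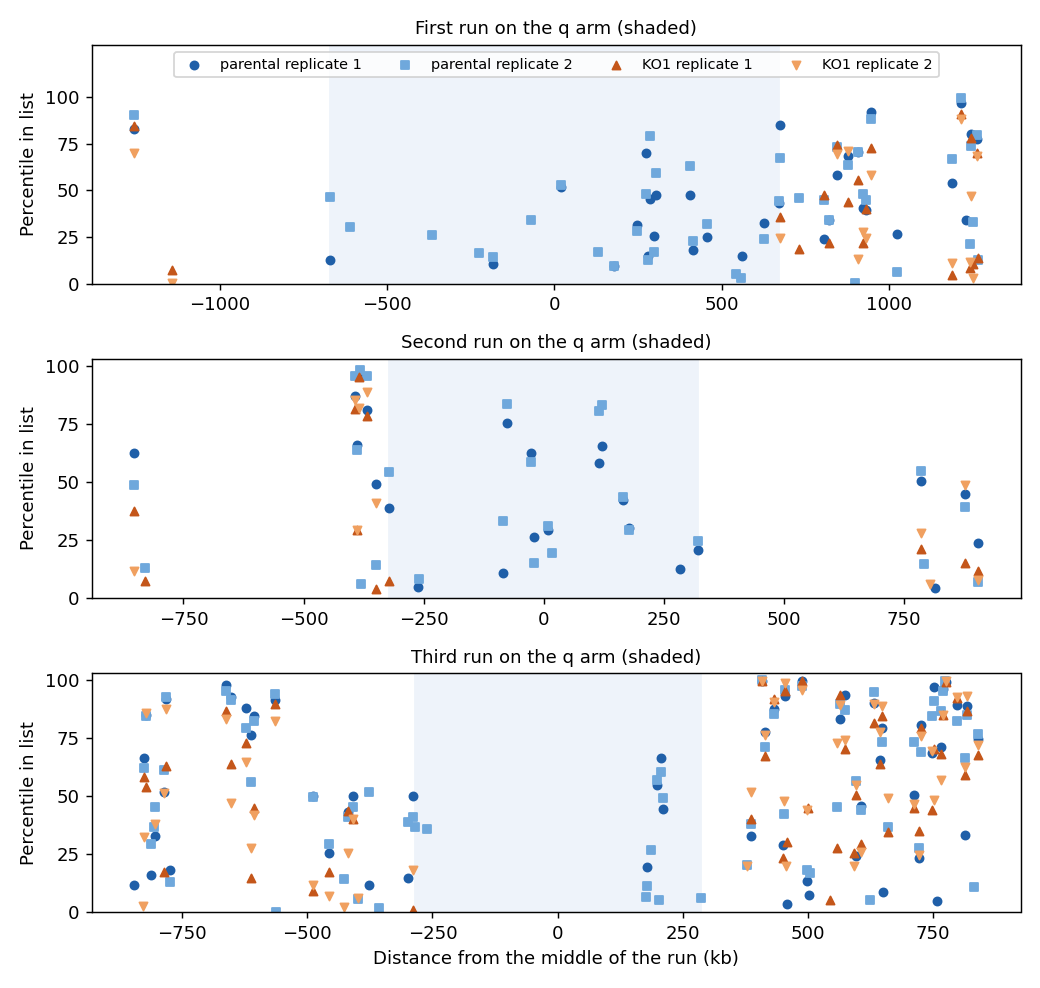
Percentile of each LSD1 summit in its own list (y axis) against the distance from the middle of each run (x axis, kb), for the 3 long runs of the q arm from top to bottom and their surroundings; blue symbols are parental and orange symbols KO1 libraries, and the shaded span is the run. No orange symbol falls inside a shaded span, by construction (those at its edges lie just outside it), and the blue symbols there reach percentile 83.4 in the second run.

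Regions on either side of the runs that all 4 lists shared were mostly lower in KO1 cells as well. Of the 10 such regions nearest on the left and on the right, 8 and 9 were lower in KO1 cells for the first run, with medians of the KO1 minus parental percentile of −7.08 and −12.3, while 70.5% of all such q-arm regions were lower. The left 10 of this run reached out to 3219 kb, and their median percentile was 60.9 and 71.2 in the parental lists and 61.5 and 65.6 in the KO1 lists, which overlap. For the second run 10 and 9 of 10 were lower, with medians of −20.2 and −12.1. For the third run all 10 on the left were lower, with a median of −25.6, but on the right 4 of 10 were lower, with a median of 3.62. All flanks but the right one of the third run thus had a lower median in KO1 cells.

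The runs did not carry the whole q-arm surplus. They held 30 of the 105 parental-only regions of the q arm (28.6%). With long runs left out of every chromosome, the q arm kept 75 of 1130 (6.64%) and chromosome 16 kept 106 of 2043 (5.19%, rank 4 of 23), beside 4.14% over all chromosomes. Chromosome 18, which had no long run, was at 7.0% and chromosome 20 at 6.36%. Smaller runs of 4 regions lay on the q arm at chr16:53549340-53581147, chr16:54389318-54961020 and chr16:56885049-56944593, each with 3 regions in both parental lists. The first and second of these fall in the bin at 50 to 55 Mb. A further run of 4 regions, chr16:22696989-23135871 on the p arm, had 1 region in both parental lists. The genome had 71 runs of 4 regions, 4 of them on chromosome 16.

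Most parental-only regions on the p arm had a KO1 summit not far off, whereas many of those on the q arm did not. The median distance to the nearest KO1 summit was 3.89 kb on the p arm and 19.6 kb on the q arm, and 8.79 kb on the q arm outside the runs, beside 7.91 kb on the other chromosomes. A KO1 summit lay within 2 kb of 10 of 31 (32.3%) on the p arm and of 9 of 105 (8.57%) on the q arm, beside 19% on the other chromosomes. Over 100 kb separated 32 of the 136 (23.5%) from any KO1 summit, beside 5.45% elsewhere, and 31 of the 32 were on the q arm. Members of the runs are far from a KO1 summit by construction, and outside the runs 5 of 75 on the q arm (6.67%) were over 100 kb from one. Of the 62 KO1-only regions, 18 (29.0%) had a parental summit within 2 kb, beside 20.9% on the other chromosomes, and 1 was over 100 kb from any (1.61%, beside 9.39%). The parental-only regions were weak as a class: their median percentile was 20.1 in parental replicate 1 and 29.0 in replicate 2, beside 18.8 and 27.2 elsewhere. A mean at or above 50 was reached by 22 of 136 (16.2%), beside 12.5% on the other chromosomes. On the q arm outside the runs 6 of 75 (8%) reached it.

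A parental-only and a KO1-only region stood within 2 kb of each other in 9 places. Of these, 6 were on the p arm and 3 on the q arm. Such pairs were not counted on the other chromosomes, so the number has no share to stand beside. The strongest parental-only region of the chromosome, chr16:67302285-67302312 at percentiles 83.1 and 86.4, was of this kind. A KO1-only region at chr16:67303814-67303816, percentiles 79.5 and 85.9, lay 1502 bp from it. At chr16:57926129-57926148 the parental percentiles were 55.3 and 77.3, and the KO1-only region 1220 bp on, chr16:57927368-57927404, was at 92.4 and 92.5. On the p arm, chr16:29833230-29833239 (63.6 and 75.9 in parental cells) and chr16:29832548-29832696 (71.9 and 69.0 in KO1 cells) were 534 bp apart, close to the joining distance. Each genotype thus had summits of its own within a short stretch at these sites. The lists hold no peak widths. A moved summit therefore cannot be told from 2 separate peaks, each missed in the other genotype. The strongest parental-only region of the p arm, chr16:27234369-27234501 at 73.1 and 75, was 12082 bp from the nearest KO1 summit. The strongest KO1-only region of the chromosome, chr16:48164011-48164086 on the q arm, was at percentiles 97.8 and 96.8 and stood 2799 bp from a parental summit.

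Where all 4 lists had LSD1, its rank on the q arm was lower in KO1 cells. Over the 569 q-arm regions of all 4 lists, the median percentile was 61.3 and 67.6 in the parental lists and 55.9 and 57.0 in the KO1 lists, so both KO1 values were below both parental values (64.5 ± 4.4 against 56.5 ± 0.77, SD, n = 2 each; exact permutation p = 0.333, the smallest possible). Over the 500 p-arm regions it was 56.9 and 63.5 in parental and 57.0 and 58.0 in KO1 cells, and these overlap (exact permutation p = 1). Regions of all 4 lists over the whole genome had medians of 59.0, 64.6, 61.2 and 61.1 in the same order, so the parental replicates differed from each other by more than the genotypes did.

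Set against the genome-wide median of the same list, the q arm changed sides between the genotypes. It was 2.34 and 3.06 points above the genome in the parental lists and below it in the KO1 lists, at −5.26 and −4.13 points. The p arm was below the genome in all 4 lists, at −2.06 and −1.05 points in parental and −4.19 and −3.18 points in KO1 cells, and here too the genotypes did not overlap (exact permutation p = 0.333, the smallest possible). The means differed by −2.13 points on the p arm and −7.39 points on the q arm. The q arm thus ranked above the p arm by 4.40 and 4.11 points in the parental lists and below it in the KO1 lists (−1.07 and −0.95 points; exact permutation p = 0.333, the smallest possible).

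**Figure D4:**
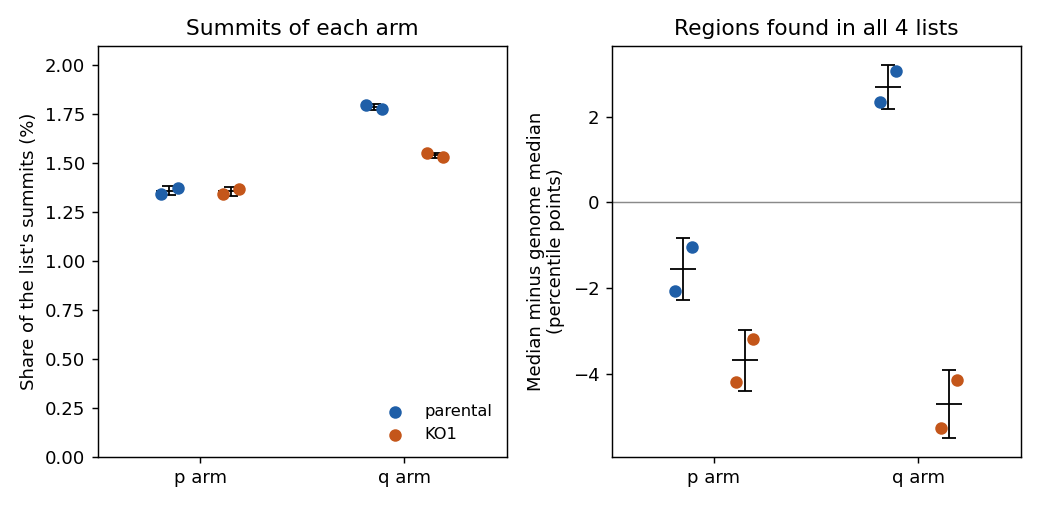
Left, share of each list's summits on the p and q arm (y axis, %); right, median percentile of the regions of all 4 lists on each arm minus the median over the genome (y axis, percentile points); points are libraries, blue parental and orange KO1, with mean and SD in black (n = 2). The genotypes stand apart on the q arm in both panels and on the p arm in the right panel; the q-arm values are 1.80% and 1.78% against 1.55% and 1.53% and 2.34 and 3.06 against −5.26 and −4.13 points.

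Region by region, the median KO1 minus parental difference was −4.79 points on chromosome 16, the lowest of the 23 chromosomes, beside −0.578 in the genome and −2.72 on chromosome 18, the next lowest. It was −6.15 points on the q arm, where 70.5% of regions were lower in KO1 cells, and −2.43 points on the p arm, where 57.6% were, beside 52.6% in the genome. Both KO1 percentiles were below both parental percentiles at 329 of 1069 regions (30.8%), 126 of 500 on the p arm (25.2%) and 203 of 569 on the q arm (35.7%), beside 22.4% over all chromosomes. The reverse held for 144 regions (13.5%), 81 on the p arm (16.2%) and 63 on the q arm (11.1%), beside 19.6% over all chromosomes. Without parental replicate 2 the chromosome's median difference was −2.24 points, still the lowest of the 23, and those of the p and q arms were −0.70 and −4.24, while without parental replicate 1 the arms were at −4.27 and −8.21. Ranking over the shared regions alone gave −4.24 points for chromosome 16 and −0.159 for the genome.

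The difference was spread along the q arm and uneven along the p arm. In the 15 bins of chromosome 16 with at least 30 regions, the median difference was below 0 in 12, beside 308 of the 552 bins of the genome (55.8%). All 8 such bins of the q arm were below 0, from −3.27 points at 70 to 75 Mb to −9.51 points at 80 to 85 Mb, and the latter was the eighth lowest of the genome. The bin at 50 to 55 Mb, at −8.51 points, was the tenth lowest. The p arm had bins on both sides of 0, with −7.78 points at 0 to 5 Mb and 4.44 points at 5 to 10 Mb. At 0 to 5 Mb, where 133 regions were in all 4 lists, the median percentiles were 58.2 and 64.8 in parental and 49.2 and 50.9 in KO1 cells, and 74.4% of the regions were lower in KO1 cells. Beyond the first 5 Mb the p arm had a median difference of −0.65 points over 367 regions, close to the genome. The start of the p arm was thus like the q arm in rank. Its parental-only share, 5.45%, was below those of the 4 q-arm bins named above and of the bin at 55 to 60 Mb (6.94%). It was above those of the q-arm bins at 45 to 50, 65 to 70 and 70 to 75 Mb (4.29%, 4.07% and 4.24%).

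**Figure D5:**
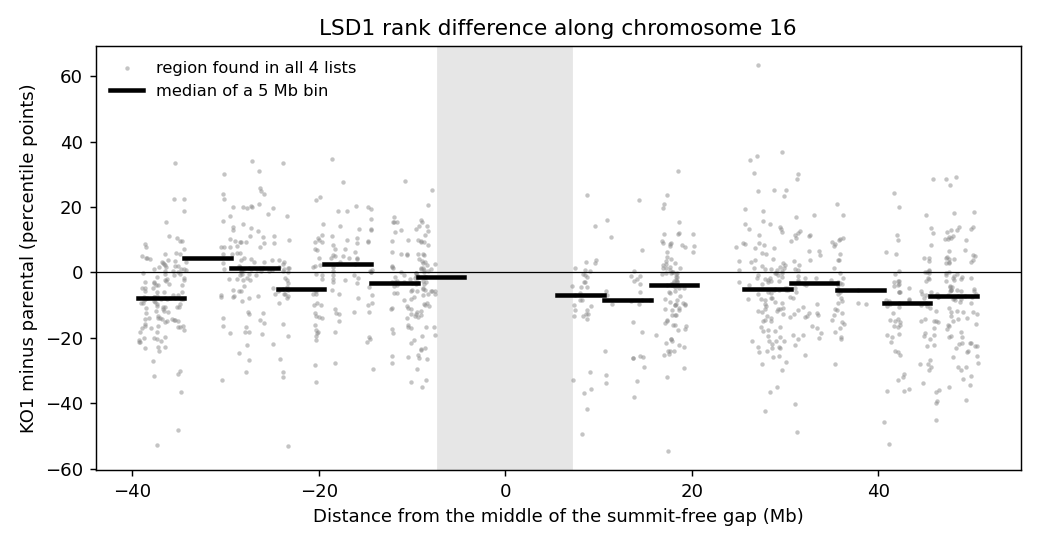
KO1 minus parental percentile (y axis, points; mean of 2 libraries each) of the 1069 regions of all 4 lists, grey points, against the distance from the middle of the summit-free gap (x axis, Mb; grey band, the gap), with black bars for the median of each 5 Mb bin with at least 30 regions. All 8 black bars of the q arm lie below 0, from −3.27 to −9.51, while those of the p arm run from −7.78 to 4.44.

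The difference depended on how strong a region was. On the q arm the median difference was −6.31 points for regions with a mean percentile under 25, −11.1 from 25 to 50, −8.23 from 50 to 75 and −2.41 above 75. On the p arm the same classes had −2.11, −5.59, −3.92 and −0.45 points, and on the other chromosomes −2.01, −1.20, −0.67 and −0.13. The strongest regions of both arms thus moved least, and a percentile has little room to move there. Even so, 71.0% of the q-arm regions above 75 were lower in KO1 cells, beside 51.4% on the other chromosomes.

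The strongest LSD1 regions of the chromosome were near the top of every list. The top of the p arm, chr16:13204430-13204483, was at percentiles 99.7 and 99.5 in parental and 99.97 and 99.99 in KO1 cells, with −log10 values of 143, 156, 228 and 202. The others of the p arm were chr16:2932744-2933024, chr16:2955544-2955821, chr16:20911760-20911772 and chr16:30382069-30382222, all at or above percentile 96.3 in every list. On the q arm, chr16:56640734-56640790 was at 99.6, 99.95, 99.7 and 99.1, chr16:86985516-86985957 at 99.1, 99.8, 99.2 and 99.8, and chr16:84651925-84652504 at 99.7, 99.0, 99.2 and 99.7. These were chosen for a high mean over all 4 lists, which leaves little room for a difference, and the fifth of the q arm, chr16:57661996-57662217, was at 99.7, 99.9, 99.3 and 97.4.

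At the other end, single regions fell or rose by over 30 points between the genotypes. On the q arm, chr16:56841414-56841491 was at percentiles 58.6 and 63.6 in parental and 11.3 and 1.74 in KO1 cells, chr16:80574443-80575034 at 53.9 and 66.5 against 4.47 and 10.9, and chr16:47678276-47678335 at 61.8 and 69.9 against 11.1 and 21.7. On the p arm, chr16:16081941-16082897 was at 95.1 and 92.6 against 33.7 and 48.1, chr16:2073382-2073458 at 74.7 and 66.6 against 26.9 and 8.81, and chr16:4359668-4360048 at 59.2 and 74.5 against 30.9 and 6.30. In each of these 6 both KO1 values were below both parental values. The widest difference of the chromosome was in the opposite direction, at chr16:66541818-66542299 on the q arm, with 11.9 and 6.02 in parental and 78.1 and 66.5 in KO1 cells. The largest gain on the p arm, chr16:20865734-20865773, went from 18.1 and 15.9 to 40.7 and 62.5.

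None of these single differences passed the test across the genome. Limma on the normal scores of the ranks, with Benjamini-Hochberg adjustment over the 35861 regions of all 4 lists, called 4 regions at an adjusted p under 0.05 (0.0112% of those tested), all lower in KO1 cells, and 0 of the 1069 on chromosome 16. The smallest adjusted p of the chromosome by limma was 0.076, at the gain of chr16:66541818-66542299, and the lowest loss, chr16:56841414-56841491, was at 0.102. At an unadjusted p under 0.05, limma gave 143 regions of chromosome 16 (13.4%), beside 11.0% over all chromosomes. Of the 143, 111 were lower in KO1 cells. The unadjusted calls over all chromosomes were not split by direction, and chromosome 16 was chosen by its rank differences. In limma without parental replicate 2, the spread came from the KO1 pair alone and the lone parental library was assumed to vary like it. The calls of that fit were therefore not read.

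The positions of the summits within shared regions were as close between genotypes as between replicates. The median distance between summits of the same region was 46.5 bp on the p arm and 42 bp on the q arm for the parental pair, and 43 and 51 bp for the KO1 pair. Between a parental and a KO1 library of the same replicate number it was 38 and 45 bp on the p arm and 47 and 51 bp on the q arm.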

How the data were processed

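LSD1 CUT&RUN gave 2 libraries of parental and 2 of RCOR2-KO1 cells of the MDA-MB-231 line; the 4 IgG libraries were not analysed here. The submitters' processing notes name FastQC 0.11.2, Bowtie2 2.3.3.1, Picard, MACS2 2.1.0 and hg19. The deposited lists give, for each peak called per library, the summit position and a −log10 of its p or q value; which of these it is, and the threshold, are not given in the sources used here. The lists hold no widths, fold enrichments or depths, so intervals cover counting error only.

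Python 3.11.15 with pandas 2.3.3 and numpy 2.4.6 was used. A percentile is the rank of the −log10 value within its list, and a region took its highest summit in each list. Library values were compared between genotypes by the exact permutation test, two-sided, over every split of the 4 libraries. Single regions were compared by limma 3.58.1 in R 4.3.3 on the normal scores of the ranks over all regions of all 4 lists, with Benjamini-Hochberg adjustment. Wilson intervals came from scipy 1.17.1. The paper states that CUT&RUN was done 2 times but not whether on separate cultures. The p-values thus measure the spread between libraries, which may be technical. Regions were named by rule: per arm the 5 strongest in all 4 lists, the 5 strongest parental-only, the 3 strongest KO1-only, the 3 largest differences in each direction, and the longest runs and extreme 5 Mb bins; paired sites and flanks were chosen after their values were seen. The chromosome, members and lists were chosen with earlier results of these data known. The sorting of regions by genotype was tested on the lists with known regions removed, and limma on simulated ranks with known shifts. The other steps were not tested in this way. RefSeq tables of GRCh38 gave only the order of genes, since coordinates were not converted, and no sequence is given for the same reason. Alternatives were joining distances of 250 and 1000 bp, the upper 50% of each list, truncation to the shortest list, other scales, each library left out and the replicate block; the long runs left out, and all alternatives for the longest run, were added after seeing the data.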

Additional observations from a re-analysis of the deposited data

How the results depend on the processing

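The median differences of both arms and the gap in the share of summits stayed below 0 under every alternative run on them. Chromosome 16 had the lowest median difference of the 23 chromosomes under each setting that recomputed the ranking. It was chosen by its rank differences in these same lists, so the alternatives show stability to the processing and do not test its place anew. In the upper 50% of each list there were 81 parental-only and 29 KO1-only regions, and the longest run without a KO1 summit had 6 regions; fewer summits entered. Leaving out 1 library gave 205 to 367 parental-only and 96 to 157 KO1-only regions, with parental-only shares of 6.11 to 13.7% on the p arm and 12.5 to 21.7% on the q arm, since the class then asks for 1 list fewer. Without the long runs the q-arm share was 6.64%. Limma called 0 to 5 regions of chromosome 16 with 1 library left out, where the lone library is assumed to vary like the other genotype's pair, 2 on the log2 of the −log10 values and 0 on percentiles, in the upper 50% and with lists cut to the shortest; the cause was not tested. With the replicate number as a block limma called 23 regions of chromosome 16 and 635 in all, while the medians of −2.43 and −6.15 were unchanged. With 2 pairs the numbers share no stated day or batch, and same-numbered libraries did not deviate together (correlation of the replicate differences 0.0072 over all regions), so the block was not used. Depth is unknown, so a missing summit means only that no peak passed the caller's threshold.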
